A study of Mus musculus with 24 samples.

Results

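The B cell coreceptors and inhibitory receptors were described here through 9 genes, chosen by name from a table of 14106 genes: Cr2, Cd81, Cd22, Siglecg, Cd72, Fcgr2b, Cd5, Ptpn6 and Fcer2a. All 9 had 1 row each in the table, and all 9 passed the filter on low counts that left 12024 genes for testing. In Spt5-depleted cells Fcer2a, Cd22, Fcgr2b and Ptpn6 were lower, Cr2 was higher, and Cd81, Siglecg, Cd72 and Cd5 were not called. The samples were cultures of mouse splenic B lymphocytes, called immature in 1 label. They were stimulated with interleukin 4 and lipopolysaccharide for 60 h in all, the last 32 h of it in the presence of 4-hydroxytamoxifen (4-HT) at 2 µM, which was added after 28 h. The 3 Spt5-depleted libraries came from Supt5hFl/- Rosa26ERT2-cre/+ cells, which carry a floxed and a null Supt5h allele and a Cre recombinase, made from the Rosa26 locus, that 4-HT activates. The 3 WT libraries came from Rosa26ERT2-cre/+ cells, so both groups carried the recombinase and received the drug, and neither the age nor the sex of the mice is in the sources used here. Spt5 and Spt4 form DSIF, a factor that travels with RNA polymerase II and acts on its pausing and processivity. WT cells had no null allele, so its effect and that of the induced deletion cannot be told apart.

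A B cell weighs the signal of its antigen receptor through neighbouring surface proteins. CD21 and CD81 belong to a coreceptor complex that strengthens the signal when the antigen carries complement fragments, which CD21 binds. Inhibitory receptors such as CD22, Siglec-G, CD72 and FcγRIIB carry tyrosine motifs in their tails that, once phosphorylated, recruit phosphatases: SHP-1, the product of Ptpn6, or SHIP-1, the product of Inpp5d. CD23, encoded by Fcer2a, is the low-affinity IgE receptor, which interleukin 4 induces in B cells and which, with CD21, is used to tell B cell subsets apart by flow cytometry.

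Total counts ran from 17306549 to 21441575 in the Spt5-depleted libraries and from 23340978 to 25649611 in the WT libraries. Supt5, the name of the targeted gene in the table, had 189, 196 and 314 counts in Spt5-depleted and 3796, 3512 and 4666 counts in WT libraries. The groups also differed in sex-linked RNA: Xist had 18 to 40 counts in each Spt5-depleted library, against 11367 to 20130 in each WT library. Summed over a group's 3 libraries, Kdm5d, Uty, Eif2s3y and Ddx3y, all on the Y chromosome, had 1111 to 3040 counts in Spt5-depleted and 1 to 3 counts in WT libraries. Every difference given here is therefore also one between libraries with Y-linked mRNA and libraries with Xist, and sex and genotype cannot be told apart. The B cell identity of the cultures was checked with 10 markers, of which 9 were in the table and none of those was at 0. Their summed level was 12950 to 15166 CPM (counts scaled to a common library size with TMM factors) in Spt5-depleted and 12605 to 13456 CPM in WT libraries, and 0 were called higher and 2 lower. Cd74, the invariant chain of MHC class II, made up most of that sum, and the other 8 summed to 4195 to 4854 CPM in Spt5-depleted and 4796 to 4941 CPM in WT libraries. The labels do not tie the libraries to individual mice, so each p-value rests on variation among libraries that could be technical alone.

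At an adjusted p under 0.05, 1 of the 9 genes was higher in Spt5-depleted cells, where 31.8% of all tested genes were, and 4 were lower, where 30.6% of all tested genes were. In either direction 62.4% of tested genes were called. These shares, 31.8% higher and 30.6% lower, are also the background for the counts of lists and markers given here. The 3 Spt5-depleted values lay wholly above or below the 3 WT values for 6 of the 9 genes, a share close to the 67.5% of all tested genes. The median log2 fold change was -0.19 over the 9 genes and 0.00 over all tested genes. The number of changed genes in the set is thus near the background, and what follows describes which genes moved and how far. CPM are not corrected for gene length, so levels are compared between groups and not between genes. In RNA from whole cultures, fewer cells with a transcript and less of it in each cell cannot be told apart.

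**Figure D1:**
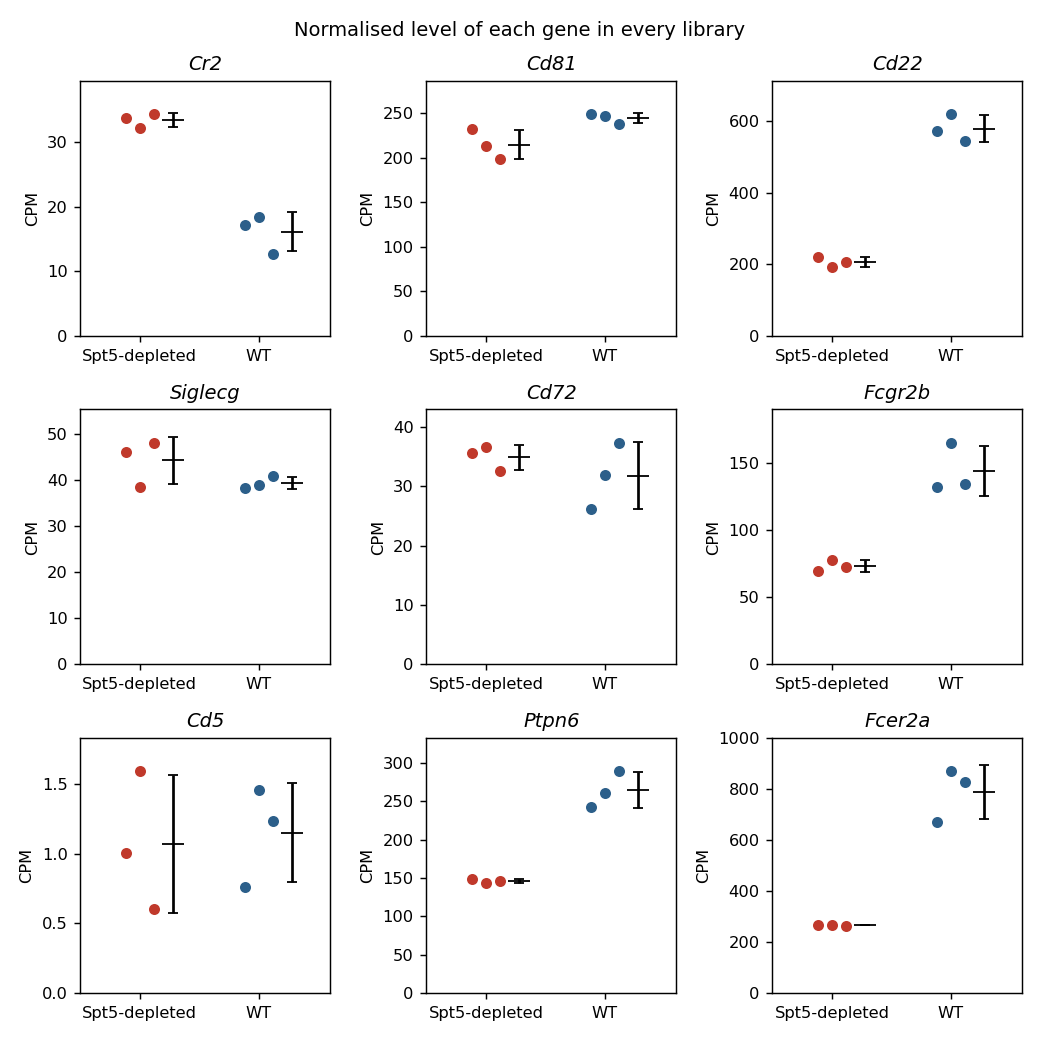
Each panel gives the level of 1 gene in CPM after TMM scaling (linear axis from 0) in the 3 Spt5-depleted and 3 WT libraries (points), with the mean and SD beside them. The Spt5-depleted points lie above all WT points for Cr2 and below them for Cd81, Cd22, Fcgr2b, Ptpn6 and Fcer2a, while those of Siglecg, Cd72 and Cd5 overlap with WT.

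Of the 2 coreceptor genes, Cr2 rose and Cd81 was not called. Cr2, which in the mouse encodes both CD21 and the longer complement receptor CD35, had 33.8, 32.2 and 34.4 CPM in Spt5-depleted and 17.2, 18.5 and 12.7 CPM in WT libraries. The lowest Spt5-depleted library was above the highest WT library, and WT replicate 3 was the lowest of all. The level averaged 33.5 ± 1.1 CPM in Spt5-depleted and 16.1 ± 3.03 CPM in WT cells (SD, n = 3 each), a log2 fold change of 1.05 ± 0.13 SE (2.07-fold; edgeR adjusted p = 4.81e-06). That change lay at percentile 90.7 of all tested genes. The counts are per gene and do not separate CD21 from CD35 transcripts.

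Cd81 encodes a tetraspanin, a membrane protein that organises its partners at the cell surface. It had 232, 213 and 199 CPM in Spt5-depleted and 249, 246 and 238 CPM in WT libraries. The 2 ranges did not overlap, but the gap between them was small, and the log2 fold change of -0.19 had a 95% interval of -0.37 to -0.01 and an adjusted p of 0.0677. Without WT replicate 3 it passed the threshold, with a log2 fold change of -0.21 (adjusted p = 0.0459), and with library totals alone as the scaling it was -0.03. The rows of Cd81 and Cd72 have a tag added to the gene name, whose letters may stand for an overlapping gene, and reads of such a gene could be in these counts.

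The annotated promoters of Cr2, which rose, and of Fcer2a and Cd22, which fell most among the 9, are shown so that a reader can set them side by side. The sequences are from RefSeq on build GRCm38.p6, each running from 250 bases before an annotated start to 50 bases from it, while the counts were made on mm9. All 9 genes had an entry, with 12 windows in all, and all windows below are on the minus strand, written 5′ to 3′. Capitals mark matches, on either strand, to TATAAA, to TTCNNNNGAA (the spacing that STAT6 prefers), to TGGGAA (the core of the site of RBPJ, the DNA-binding partner of Notch) and to GGGCGG (a GC box).
Cr2, chr1:195176670-195176969: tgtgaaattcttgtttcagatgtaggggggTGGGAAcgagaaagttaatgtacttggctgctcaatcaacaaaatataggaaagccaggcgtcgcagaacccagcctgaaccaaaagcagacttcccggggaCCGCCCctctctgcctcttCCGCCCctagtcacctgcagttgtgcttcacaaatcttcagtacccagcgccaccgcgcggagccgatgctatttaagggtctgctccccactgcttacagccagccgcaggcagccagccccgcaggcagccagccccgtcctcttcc
Cd22, chr7:30878979-30879278: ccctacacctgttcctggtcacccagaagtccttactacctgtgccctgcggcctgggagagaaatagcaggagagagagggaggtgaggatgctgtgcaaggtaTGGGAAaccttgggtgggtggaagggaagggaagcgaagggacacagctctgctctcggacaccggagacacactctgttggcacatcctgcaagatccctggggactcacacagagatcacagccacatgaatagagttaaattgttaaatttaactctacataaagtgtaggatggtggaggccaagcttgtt
Fcer2a, upstream start, chr8:3694125-3694424: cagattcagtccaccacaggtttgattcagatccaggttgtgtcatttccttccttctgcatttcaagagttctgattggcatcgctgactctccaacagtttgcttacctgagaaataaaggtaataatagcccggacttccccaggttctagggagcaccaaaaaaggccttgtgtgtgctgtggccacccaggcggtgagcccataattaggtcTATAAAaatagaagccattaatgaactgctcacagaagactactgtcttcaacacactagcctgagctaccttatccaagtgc
Fcer2a, middle start, chr8:3690812-3691111: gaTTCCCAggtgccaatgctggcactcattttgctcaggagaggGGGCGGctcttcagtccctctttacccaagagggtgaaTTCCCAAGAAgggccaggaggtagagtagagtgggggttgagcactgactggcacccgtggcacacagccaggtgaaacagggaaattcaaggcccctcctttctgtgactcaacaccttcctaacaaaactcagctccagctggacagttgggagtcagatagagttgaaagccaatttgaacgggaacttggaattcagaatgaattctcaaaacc
Fcer2a, downstream start, chr8:3690341-3690640: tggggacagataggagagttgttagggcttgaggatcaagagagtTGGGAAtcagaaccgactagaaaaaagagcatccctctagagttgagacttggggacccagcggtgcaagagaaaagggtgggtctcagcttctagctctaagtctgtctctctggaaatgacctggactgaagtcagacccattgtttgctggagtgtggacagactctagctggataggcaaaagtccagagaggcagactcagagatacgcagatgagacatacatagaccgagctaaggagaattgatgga

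Of these letters, TATAAA was in the window of the most upstream Fcer2a start alone among the 5 shown, at position -33 counted from 0 at the start. TTCNNNNGAA was in that of the middle Fcer2a start alone, at position -168, where it overlaps a TGGGAA match on the other strand. Cr2 had TGGGAA at position -220, Cd22 at position -145 and the most downstream Fcer2a window at position -205. Over all 32851 promoter windows of that length, TATAAA was in 13.6%, TTCNNNNGAA in 6.95%, TGGGAA in 25.6% and GGGCGG in 35.7%. Of the 12 windows of the 9 genes, 2 had TATAAA, 1 TTCNNNNGAA, 8 TGGGAA and 4 GGGCGG. The CpG count was 14 in the Cr2 window, 4 in that of Cd22 and 3, 3 and 4 in the Fcer2a windows from the most upstream to the most downstream, where the median of all windows was 7. In the windows not shown it was 23 for Cd81, which was not called, and 8 for Ptpn6 and 6 for Fcgr2b, which fell. It was 7 for Cd72, 3 for Cd5 and 1 in each Siglecg window, all of genes not called. These are matches of letters, and the counts do not say which start was used.

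Of the sialic acid receptors, Cd22 fell and Siglecg was not called. Cd22 encodes an inhibitory receptor of B cells that binds α2,6-linked sialic acid and recruits SHP-1. It had 221, 193 and 207 CPM in Spt5-depleted and 572, 619.6 and 546 CPM in WT libraries, so that no library of one group came near the other group. The mean was 207 ± 14.2 CPM in Spt5-depleted and 579 ± 37.4 CPM in WT cells (SD, n = 3 each), a 2.80-fold lower level in Spt5-depleted cells (log2 fold change -1.48 ± 0.09 SE, adjusted p = 5.62e-09). This placed Cd22 at percentile 3.03 of the log2 fold changes of all tested genes.

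Siglecg, the gene for Siglec-G, a second B cell receptor for sialic acids with inhibitory motifs, had 46.2, 38.6 and 48.2 CPM in Spt5-depleted and 38.4, 39.0 and 40.8 CPM in WT libraries. The ranges overlapped, with Spt5-depleted replicate 2 inside the WT range. The log2 fold change was 0.17 (95% interval -0.04 to 0.38, adjusted p = 0.153). With library totals alone it was 0.33 and passed (adjusted p = 0.0112). The interval of Siglecg lies above that of Cd22, which ran from -1.68 to -1.29.

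Among the enzymes that build the sialic acid ligands of these receptors, St6gal1, which adds the α2,6 link that CD22 recognises, had 184, 185 and 193 CPM in Spt5-depleted and 493, 503 and 362 CPM in WT libraries. Its groups did not overlap, and it fell by 1.27 on the log2 scale (SE 0.11, adjusted p = 4.46e-07). Nans, a sialic acid synthase, and Cmah, which converts sialic acid to its N-glycolyl form in the mouse, also fell (log2 fold changes -0.54 and -0.83, adjusted p = 8.97e-05 and 0.000152). Slc35a1, the carrier of CMP-sialic acid into the Golgi, and Neu3, a plasma membrane sialidase, rose (0.57 and 1.30, adjusted p = 0.00016 and 9.06e-05). Neu3 averaged 3.87 CPM in Spt5-depleted and 1.56 CPM in WT cells. Of the 15 listed ligands of the 9 proteins, sialic acid enzymes and sheddases, 14 were tested. Of these, 5 were higher and 5 lower (median log2 fold change 0.04, against 0.00 over all tested genes). Over all tested genes 31.8% were higher and 30.6% lower.

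Of the remaining inhibitory receptors, Fcgr2b fell, and Cd72 and Cd5 were not called. Fcgr2b encodes FcγRIIB, the inhibitory receptor for IgG, which acts through SHIP-1. It had 69.7, 77.7 and 72.2 CPM in Spt5-depleted and 132, 165 and 134 CPM in WT libraries. The groups did not overlap, and the level averaged 73.2 ± 4.11 CPM in Spt5-depleted and 144 ± 18.3 CPM in WT cells (SD, n = 3 each). This was 1.96-fold lower in Spt5-depleted cells (log2 fold change -0.97 ± 0.10 SE, adjusted p = 1.07e-06). Fcgr2b and Fcgr3 are near-identical over part of their length, and how the counting treated reads that fit both is not given here.

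Macrophages carry Fcgr2b and Ptpn6 mRNA too. The 9 macrophage and monocyte markers in the table, of 10 listed, summed to 107 to 187 CPM in Spt5-depleted and 77.2 to 104.0 CPM in WT libraries. Of the 7 that were tested, 5 were higher and 0 lower, and none of the 9 was at 0 in both groups. Mpeg1 made up most of that sum, and the other 8 summed to 28.2 to 63.2 CPM in Spt5-depleted and 23.7 to 32.4 CPM in WT libraries, ranges that overlap. The part of these cells in the values of Fcgr2b and Ptpn6 was not tested.

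Cd72 encodes a receptor that recruits SHP-1 and binds semaphorin 4D. Cd72 had 35.6, 36.6 and 32.5 CPM in Spt5-depleted and 26.1, 31.9 and 37.3 CPM in WT libraries. All Spt5-depleted values lay within the WT range, and the log2 fold change was 0.13 (95% interval -0.12 to 0.39, adjusted p = 0.342). It passed without WT replicate 3 (log2 fold change 0.26, adjusted p = 0.0446) and with library totals alone (0.29, adjusted p = 0.0428), and was 0.01 without WT replicate 1. Sema4d, the gene for its ligand, averaged 195 ± 8.18 CPM in Spt5-depleted and 234 ± 27.5 CPM in WT cells (SD, n = 3 each). It was called lower, at a log2 fold change of -0.26 ± 0.10 SE (adjusted p = 0.0263). The call for Sema4d was lost without any 1 of 4 libraries, at adjusted p = 0.101 and 0.0924 without Spt5-depleted replicates 2 and 3 and 0.0939 and 0.0564 without WT replicates 1 and 2, and with library totals alone (adjusted p = 0.351).

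Cd5, which marks B-1 cells and T cells, was scarce. It had 18, 34 and 14 counts in Spt5-depleted and 18, 32 and 30 counts in WT libraries, or 1.00, 1.59 and 0.606 CPM against 0.758, 1.45 and 1.24 CPM. The groups overlapped widely, and the log2 fold change of -0.11 had a 95% interval of -0.89 to 0.67 (adjusted p = 0.811), so that even a change of 1.5-fold was not detectable at this depth. The 10 T cell markers, all in the table, summed to 33.6 to 53.7 CPM in Spt5-depleted and 64.2 to 70.2 CPM in WT libraries. Of the 10, 2 were called lower, Cd2 and Lck, and 8 were not called. Lck had the highest level, and the other 9 summed to 21.6 to 35.7 CPM in Spt5-depleted and 39.7 to 41.9 CPM in WT libraries. The 6 markers of B-1 cells summed to 129 to 139 CPM in Spt5-depleted and 259 to 312 CPM in WT libraries, with 2 called higher and 3 lower. Itgam stands in both the B-1 and the macrophage list. What share of the Cd5 counts came from T or B-1 cells was not tested.

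**Figure D2:**
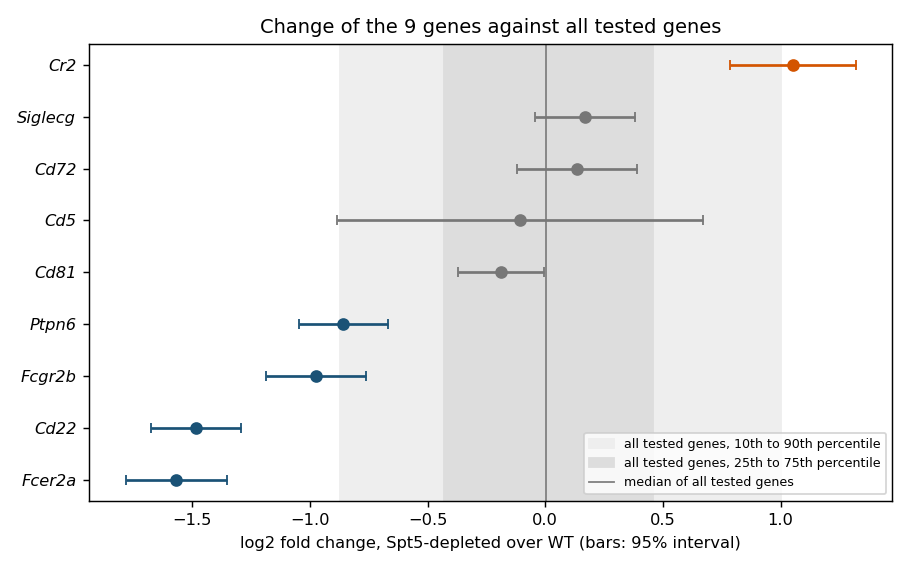
The log2 fold change of each gene, Spt5-depleted over WT, is shown with its 95% interval (orange, higher; blue, lower; grey, not called), over bands from percentile 10 to 90 and 25 to 75 of all 12024 tested genes. Fcer2a, Cd22 and Fcgr2b lie below the outer band and Cr2, at 1.05, just above it, while Siglecg, Cd72, Cd5 and Cd81 lie inside the inner band.

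Ptpn6 encodes SHP-1, the tyrosine phosphatase that CD22, CD72 and other inhibitory receptors recruit. It had 148, 143 and 146 CPM in Spt5-depleted and 243, 261 and 289 CPM in WT libraries. The Spt5-depleted libraries were all below the WT libraries and close to each other. The mean of 146 ± 2.70 CPM in Spt5-depleted cells, against 264 ± 23.5 CPM in WT cells (SD, n = 3 each), gave a log2 fold change of -0.86 ± 0.09 SE (1.81-fold lower in Spt5-depleted cells, adjusted p = 1.1e-06).

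Other proteins of the inhibitory branch went both ways. Inpp5d, the gene for SHIP-1, had 194, 176 and 199 CPM in Spt5-depleted and 282, 249.7 and 267 CPM in WT libraries (log2 fold change -0.49 ± 0.09 SE, adjusted p = 0.000201). Lyn, the Src-family kinase that phosphorylates the inhibitory motifs, had 154, 153 and 149 CPM in Spt5-depleted and 175, 162 and 141 CPM in WT libraries and was not called (log2 fold change -0.07, 95% interval -0.26 to 0.13, adjusted p = 0.536). Its ranges overlapped. All 16 phosphatases, adaptors and kinases listed were tested. Of them 4 were higher and 8 lower (median log2 fold change -0.23), where 31.8% and 30.6% of all tested genes were. The lower ones with the smallest p, besides Ptpn6, were the kinase Fyn (-0.98), the adaptor Dok2 (-1.50) and Inppl1 (-0.998), the gene for SHIP-2, whose row has the same tag as that of Cd81. Dok2 was scarce, at 1.33 CPM in Spt5-depleted and 3.80 CPM in WT cells. The higher ones were led by Ptpn11, the gene for the phosphatase SHP-2 (0.70), the ubiquitin ligase gene Cblb (0.62) and the adaptor gene Dok3 (0.89). Ptpn11 averaged 130.2 ± 4.53 CPM in Spt5-depleted and 80.2 ± 9.54 CPM in WT cells (SD, n = 3 each; adjusted p = 1.64e-05).

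Fcer2a, the gene for CD23, had the largest fold change of the 9. It had 268, 267 and 265 CPM in Spt5-depleted and 670.5, 870.3 and 828 CPM in WT libraries. The Spt5-depleted libraries nearly coincided and the WT libraries were spread, with no overlap. The mean was 266 ± 1.58 CPM in Spt5-depleted and 789.7 ± 105 CPM in WT cells (SD, n = 3 each), 2.96-fold lower in Spt5-depleted cells. The log2 fold change was -1.57 ± 0.10 SE (edgeR adjusted p = 9.77e-09). This was percentile 2.64 of all tested genes. Adam10, the protease that sheds CD23 from the cell surface, rose, with 192, 199 and 193 CPM in Spt5-depleted and 149, 136 and 109 CPM in WT libraries (log2 fold change 0.57 ± 0.10 SE, adjusted p = 0.000257). Protein on the surface was not measured by these counts.

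Since CD21 and CD23 serve as subset markers, the listed markers of subsets were set beside them. The 8 markers of marginal zone B cells, which carry much CD21 and little CD23, summed to 505 to 528 CPM in Spt5-depleted and 314 to 333 CPM in WT libraries, with 5 called higher and 1 lower. Notch2, the receptor this subset depends on, averaged 271 CPM in Spt5-depleted and 134 CPM in WT cells (log2 fold change 1.01, adjusted p = 7.01e-07). It had the highest level of the 8, and the other 7 summed to 240 to 262 CPM in Spt5-depleted and 180 to 212 CPM in WT libraries. Plac8 was the lower one (-0.38), and Cd1d1 (-0.11) and Cd9 (0.14) were not called. The 6 listed markers of follicular B cells summed to 1033 to 1121 CPM in Spt5-depleted and 741 to 829 CPM in WT libraries. That order rested on Ccr7, and the other 5 summed to 399.6 to 420.1 CPM in Spt5-depleted and 534 to 629 CPM in WT libraries. The markers were split, with 2 higher, Ccr7 (1.79) and IGHD (0.95), and 4 lower, among them Cxcr5 (-0.40). Notch2, Plac8, Cd1d1, Cd9, Ccr7, IGHD and Cxcr5 were picked for naming after their values were seen. Plasma cells carry little CD21, CD22 and CD23, and the 6 plasma cell markers in the table summed to 2162 to 2360 CPM in Spt5-depleted and 2351 to 3548 CPM in WT libraries, with 2 higher and 1 lower. Without Xbp1, which had the highest level, the other 5 summed to 1330 to 1460 CPM in Spt5-depleted libraries, inside the WT range of 1035 to 1879 CPM. Of the 8 markers of follicular dendritic cells, which carry CD21, CD23 and FcγRIIB, 3 (Fdcsp, Cxcl13 and Enpp2) had no row in the table used here, and the 2 that were tested were not called. The part of changed subsets in the values of Cr2 and Fcer2a was not tested.

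Ratios of counts within a library do not depend on how libraries are scaled, and 6 were compared, of which 4 are given. Each gave an exact permutation p, two-sided, of 0.1, the smallest that 3 against 3 libraries allow, and 0.1 after Benjamini-Hochberg adjustment over the 6, so none could reach 0.05. Of the coreceptor genes, Cr2 counts per Cd81 count were 0.146, 0.152 and 0.173 in Spt5-depleted and 0.0693, 0.0750 and 0.0535 in WT libraries, a ratio 2.39-fold higher in Spt5-depleted libraries. The lowest Spt5-depleted library lay above the highest WT library.

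Among the inhibitory proteins, Siglecg counts per Cd22 count were 0.209, 0.200 and 0.232 in Spt5-depleted and 0.0672, 0.0630 and 0.0748 in WT libraries, 3.13-fold higher in Spt5-depleted libraries. Cd22 to Ptpn6 was 1.49, 1.35 and 1.42 in Spt5-depleted and 2.36, 2.37 and 1.89 in WT libraries, so that the receptor was 1.55-fold lower relative to the phosphatase in Spt5-depleted libraries. The widest contrast was that of Fcer2a to Cr2, at 7.92, 8.29 and 7.70 in Spt5-depleted and 38.9, 47.1 and 65.1 in WT libraries, 6.18-fold lower in Spt5-depleted libraries. WT libraries were spread more widely than Spt5-depleted ones for this ratio.

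**Figure D3:**
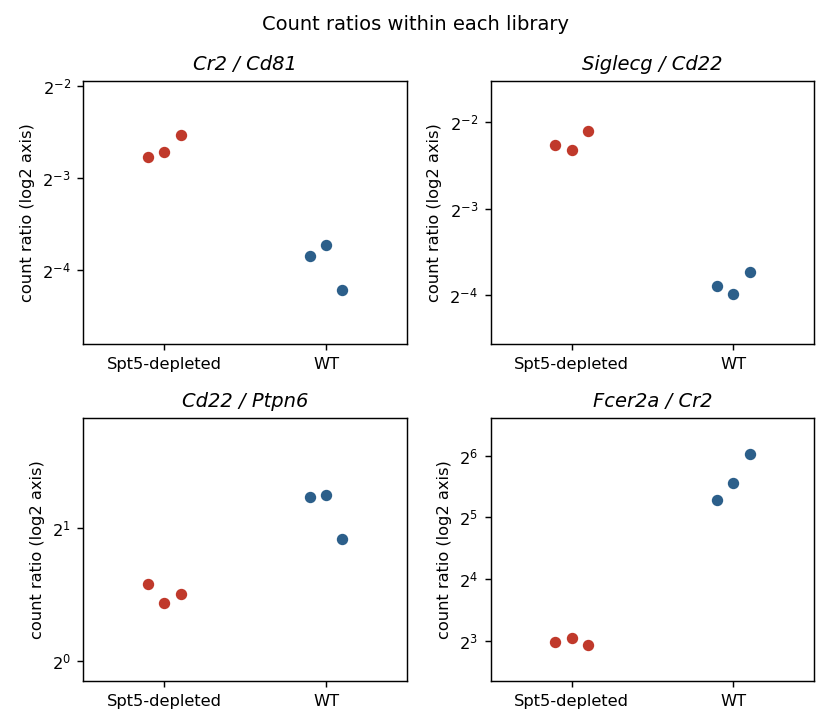
Each panel shows 1 ratio of read counts between 2 genes (log2 axis) in the 3 Spt5-depleted and 3 WT libraries. In all 4 panels the groups are apart, with Fcer2a to Cr2 near 8 in Spt5-depleted and at 38.9 to 65.1 in WT libraries.

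Wider lists were read from the same fit, each beside the median of 0.00 of all tested genes. Of all tested genes 31.8% were higher and 30.6% lower. Of 14 inhibitory receptors that B cells can carry, 13 were tested, 2 were higher and 7 lower (median log2 fold change -0.35). The 13 include Cd22, Fcgr2b, Siglecg, Cd72 and Cd5 of the 9 genes, with Cd22 and Fcgr2b among the lower ones. Outside the 9 genes, the lower ones with the smallest p were Pecam1 (-0.63, adjusted p = 2.43e-05), Ceacam1 (-0.86, adjusted p = 0.000192) and Fcrl5 (-0.44, adjusted p = 0.000303), all cell surface proteins with inhibitory tyrosine motifs. Pirb and Lilrb4, inhibitory receptors of myeloid cells as well as B cells, were higher (0.61 and 0.47), and these calls were lost without single libraries. For Pirb the adjusted p was 0.0702 without Spt5-depleted replicate 2 and 0.0658 without WT replicate 3. For Lilrb4 it was 0.18 and 0.0962 without Spt5-depleted replicates 2 and 3, and 0.129 and 0.108 without WT replicates 1 and 3. Without Spt5-depleted replicate 2 the list had 0 higher genes, and it had 4 with library totals alone. Both genes belong to families of close paralogs. The macrophage marker sums above were higher in the same group, and 5 of the 7 tested markers were called higher and 0 lower. Without Mpeg1 the sums were 28.2 to 63.2 CPM in Spt5-depleted and 23.7 to 32.4 CPM in WT libraries, ranges that overlap. The part of macrophages in Pirb and Lilrb4 was not tested.

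Of 13 listed genes of coreceptor signalling, all were tested, with 3 higher and 5 lower (median -0.07). Lower were Pik3ap1, the adaptor BCAP, which feeds phosphoinositide 3-kinase (-0.78, adjusted p = 2.14e-06), the kinase gene Btk (-0.74, adjusted p = 6.02e-06) and the exchange factor gene Vav1 (-0.66, adjusted p = 6.52e-06). Higher were Vav2 (0.69, adjusted p = 6.49e-05) and Pik3r1, the regulatory subunit of the kinase (0.60, adjusted p = 0.000264). Vav3 passed narrowly (0.26, adjusted p = 0.0473). It did not pass without Spt5-depleted replicates 2 or 3 (adjusted p = 0.19 and 0.102) or WT replicates 1 or 3 (0.107 and 0.094), or by the test of DESeq2 (0.0808). With library totals alone the list had 5 higher genes.

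Of 14 tetraspanins, the family of CD81, 3 were higher and 4 lower (median -0.23). Cd37, a tetraspanin of B cells, fell (-0.60, adjusted p = 2.80e-05), as did Cd82 (-0.49, adjusted p = 0.000112) and Tspan3 (-0.42, adjusted p = 0.0018). The row of Cd82 has the same tag as that of Cd81. Tspan32 and Tspan13 rose (0.85 and 0.49, adjusted p = 7.98e-06 and 0.000529). Cd63, at 1.21 CPM in Spt5-depleted and 0.645 CPM in WT cells, was called higher (0.92, adjusted p = 0.0328) in the full set and when Spt5-depleted replicate 1 was left out. Leaving out any other library gave it an adjusted p of 0.0512 (Spt5-depleted replicate 3), 0.0523 (WT replicate 2), 0.0575 (WT replicate 1), 0.0997 (WT replicate 3) or 0.237 (Spt5-depleted replicate 2), and the test of DESeq2 gave 0.088.

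Of 13 Fc receptors and partners, 9 were tested, 3 were higher and 5 lower (median -0.44). Besides Fcer2a and Fcgr2b, the lower ones were Fcrl5, Fcgr4 (-1.20, adjusted p = 0.00105) and Fcgr3 (-0.53, adjusted p = 0.0314), an activating receptor for IgG like Fcgr4. Fcgr3 lost its call without Spt5-depleted replicates 1 or 2 (adjusted p = 0.101 and 0.0912), without WT replicate 3 (0.118), with library totals alone (0.126) and by the test of DESeq2 (0.0623). The higher ones were Fcer1g, the signalling γ chain that activating Fc receptors share (1.18, adjusted p = 0.000575), Fcrla, an intracellular Fc receptor-like protein of B cells (0.90, adjusted p = 0.000155), and Trim21, a cytosolic receptor for antibody (0.79, adjusted p = 3.60e-05). Fcgr4 averaged 3.44 CPM in Spt5-depleted and 7.90 CPM in WT cells, and Fcgr3 2.58 and 3.76 CPM. Fcer1g is also abundant in macrophages, whose markers are given above, and their part in the values of these Fc receptor genes, higher or lower, was not tested.

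**Figure D4:**
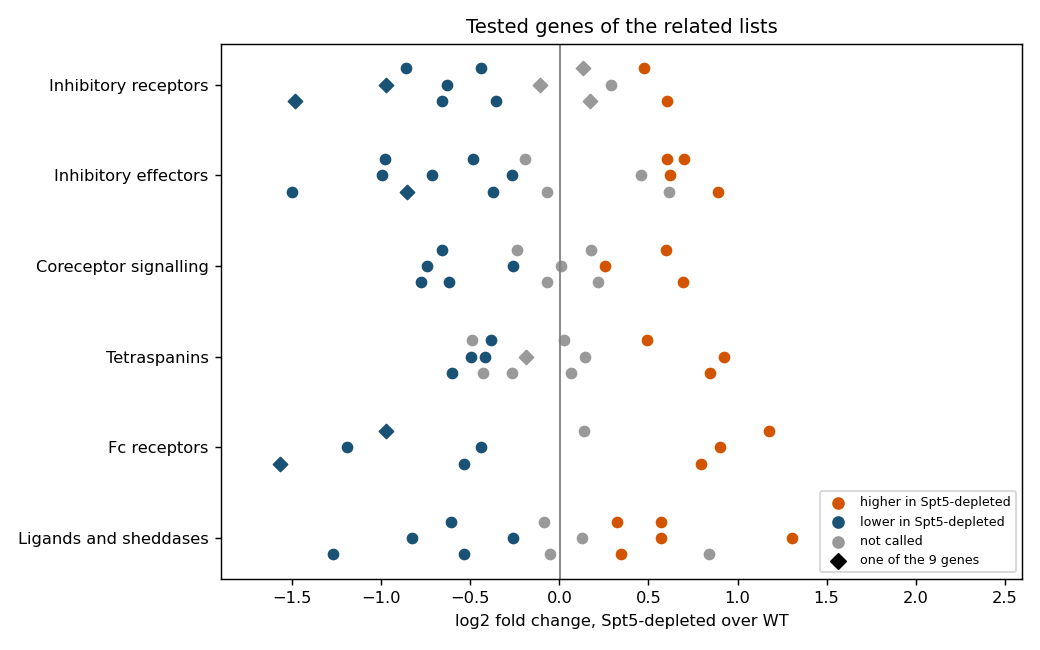
Each point is 1 tested gene of a list, placed by its log2 fold change, Spt5-depleted over WT (orange, higher; blue, lower; grey, not called; diamonds, the 9 genes; vertical line, median of all tested genes). Each of the 6 lists has at least 2 higher and at least 4 lower genes. The diamonds of Cd22 and Fcer2a stand near -1.5.

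The gene nearest to each of the 9 in its profile over the 6 libraries was found by the Euclidean distance between log2 CPM values centred on each gene's mean, among the 9236 other genes that averaged 5 CPM or more. For Fcer2a it was Dnpep (distance 0.08, log2 fold change -1.56), for Cd22 Gpr15 (0.18, -1.47), for Ptpn6 Ppp5c (0.04, -0.83) and for Fcgr2b Plscr1 (0.13, -0.92). For Cr2 it was Slc17a5 (0.15, 1.02), for Cd81 Actr6 (0.08, -0.14), for Siglecg Hsf1 (0.07, 0.20) and for Cd72 Dpcd (0.11, 0.12). Cd5 had no near neighbour, the closest being at a distance of 0.63. A profile over 6 libraries in 2 groups is set mostly by the difference between the groups.

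In the authors' deposited table, the same comparison had log2 fold changes of 1.04 for Cr2, -1.58 for Fcer2a, -1.49 for Cd22, -0.98 for Fcgr2b and -0.87 for Ptpn6. The authors' deposited table gave Cd81 an adjusted p of 0.0599, Siglecg 0.244, Cd72 0.455 and Cd5 0.853. The same 5 of the 9 genes thus had an adjusted p under 0.05 there.

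**Figure D5:**
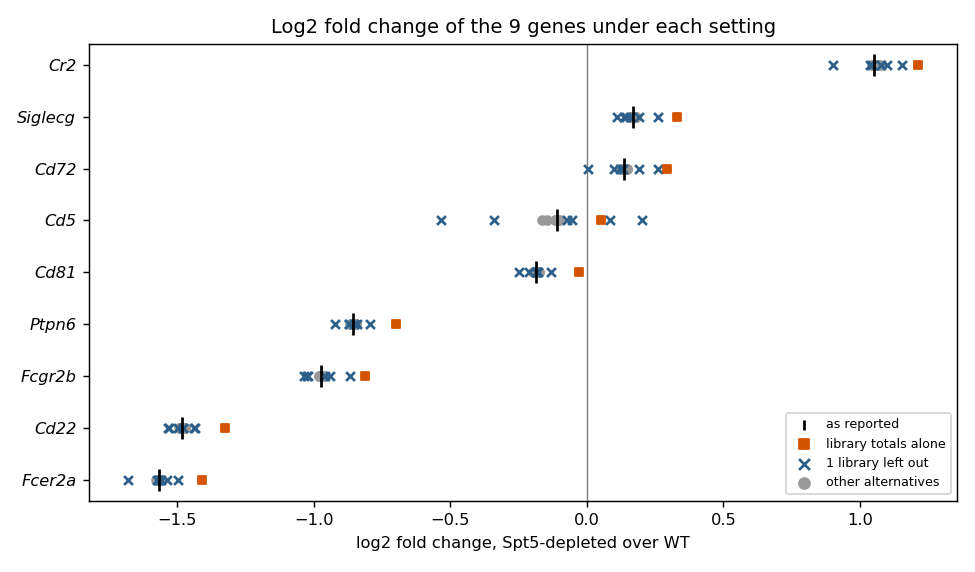
The log2 fold change of each of the 9 genes, Spt5-depleted over WT, is drawn as reported (bar), with library totals alone (squares), with 1 library left out (crosses) and under the other alternatives (circles). Cr2, Ptpn6, Fcgr2b, Cd22 and Fcer2a keep to 1 side of 0 under every setting drawn, Cr2 between 0.90 and 1.21, while Cd5 crosses it.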

How the data were processed

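RNA-seq libraries of 3 Spt5-depleted and 3 WT cultures were analysed, grouped by their labels. The 18 samples of other assays were not analysed here. Per the labels' protocols, RNA was extracted with Trizol, and libraries of poly(A) RNA were made with the SENSE kit of Lexogen. Per the submitters' processing notes, the tools were featureCounts 1.5.0-p1, DESeq2 1.10.1, TopHat, cutadapt 1.10 and Bowtie2 2.1.0, on build mm9. The sources used here give neither their roles nor the annotation, the strand setting or the handling of multiply mapped reads. The deposited table holds whole read counts per gene, not normalised by the authors, and each of its 14106 genes has at least 10 counts over the 6 libraries. The authors' log2 fold change and adjusted p-value for each gene stand beside the counts and were used only where named. Columns named KO were taken as the Spt5-depleted samples of the same number.

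Counts were filtered with filterByExpr, scaled by TMM (factors 0.943 to 0.949 for WT, 1.04 to 1.08 for Spt5-depleted libraries) and tested with edgeR 4.0.16 (R 4.3.3) by a two-sided robust quasi-likelihood F test, with Benjamini-Hochberg adjustment over all tested genes. TMM rests on a majority of genes being stable, while 62.4% were called. Alternatives used DESeq2 1.42.0, limma 3.58.1, other scalings and filters, the replicate number, and each library left out. Libraries within a group were further apart than sampling alone would put them. The chi-square per degree of freedom was 6.45 to 10.8 between Spt5-depleted libraries and 28.0 to 33.2 between WT libraries. The fit used 1 dispersion per gene for both groups. The procedure was tested on simulated data in which few genes were changed, in both directions. That simulation cannot speak to scaling by TMM where 62.4% of genes were called. The 9 genes, the lists and the motifs were chosen with earlier results of these data known. Named genes are the 9, Supt5, Inpp5d, Lyn, Adam10 and Sema4d, up to 3 higher and 3 lower genes of each list with the smallest p, and the nearest profiles. The named markers were chosen after their values were seen. Some genes, and the ratios and the list that rest on them, are not reported here.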

Additional observations from a re-analysis of the deposited data

How the results depend on the processing

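Of the 9 genes, Cr2, Cd22, Fcgr2b, Ptpn6 and Fcer2a kept their direction and call under all 15 alternatives. Library totals alone shifted all genes, to a median of 0.16 on the log2 scale, and made 64.8% of the calls higher, against 50.9%. The 9 genes then had 3 higher calls, Siglecg and Cd72 being added to Cr2, and still 4 lower. Of all 12024 tested genes, 4962 were higher and 2694 lower under that scaling. With 1 library left out, the higher calls among the 9 ranged from 1 to 2, the lower calls from 4 to 5, and all genes called from 6717 to 7447. Of the 12223 to 12283 genes tested in those fits, 3431 to 3784 were higher and 3281 to 3678 lower. Cd5 changed sign with library totals alone (0.0506) and when libraries were left out (-0.53 to 0.20, positive without Spt5-depleted replicate 3 at 0.20 and without WT replicate 2 at 0.08). Lyn changed sign with library totals alone (0.0909) and, with 1 library left out, ranged from -0.16 to 0.00104, the value without WT replicate 1. None of these values was called, and the cause was not tested. No count of all genes called moved by over 1.5 times under the alternatives. Of 580 values of the 39 other named genes under alternatives, 541 kept direction and call, 37 lost the call, and 2 changed sign. Of 240 list counts under alternatives, 14 moved by over 1.5 times, 7 of them the 2 higher inhibitory receptors, which became 0, 1 or 4. With library totals alone the higher genes numbered 5 in coreceptor signalling, against 3. Among follicular dendritic cell markers, 1 was higher without the filter and 1 lower without Spt5-depleted replicate 1, against 0.

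The numbers of the replicates pair no samples that the labels tie together: deviations of same-numbered libraries correlated at 0.04, -0.04 and -0.01, and Spt5-depleted replicate 3 correlated best with WT replicate 2 (0.09). With the replicate number as a block, 7369 of 12024 genes were called, 3755 higher and 3614 lower, against 7504 called without it. Of the 9 genes, 1 was higher and 4 lower with the block. Among the other named genes Vav3 then had an adjusted p of 0.0587. The mean differences of the 6 ratios are the same by construction. With 1 library left out, the log2 difference ran from 1.12 to 1.31 for Cr2 to Cd81 and from 1.59 to 1.71 for Siglecg to Cd22. It ran from -0.74 to -0.57 for Cd22 to Ptpn6 and from -2.80 to -2.43 for Fcer2a to Cr2. Depth limits Cd5, with 14 to 34 counts a library.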
